A study of Rattus norvegicus with 23 samples.

Results

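The comparison set 3 RNA-seq libraries of rat median nerve, taken 3 days after a cut and repair labelled EV, against 3 libraries of healthy epigastric vein. These 6 libraries were chosen by their titles out of 23 in the series, and all 32545 gene rows of the count table entered. All animals were adult female rats of the WT genotype. The EV day 3 libraries carry the tissue label median nerve, the treatment label of a repaired cut and the time label day 3. The vein libraries carry the labels no treatment and day 0. The labels do not spell out EV and do not say what bridged the nerve ends in these animals. The series design describes an 8 mm gap repaired with a 10 mm graft of muscle in vein (MIV). Both sides are whole tissue, so fewer cells of a type and less RNA per cell cannot be told apart. No label says that libraries of a group came from separate animals, and the p-values then measure only the spread between these samples.

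A vein is a tube of endothelial cells, smooth muscle cells and connective tissue. A peripheral nerve holds axons, the Schwann cells that wrap them, fibroblasts and a sheath of its own. After a cut, Schwann cells leave their myelinating state, axons beyond the cut break down, and blood-borne cells enter the tissue. A vein serves as a conduit in nerve repair because its wall is soft, pre-formed and taken from the same body. A repaired nerve and a healthy vein thus differ in cell make-up as well as in injury, and the comparison measures the sum of these differences.

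The gene rows carry Ensembl identifiers. None of the 32545 identifiers could be paired with a gene symbol in the reference table used here, which holds 47357 genes and no Ensembl identifier. The tissue labels could therefore not be checked against marker genes, none of the 39 symbol lists drawn up for nerve, vein and blood cells could be measured, and no promoter is shown. Genes are instead described in groups that were set on libraries outside the comparison, and by 4 identifiers. Total counts ran from 12504035 to 14795619 in EV day 3 and from 12650952 to 17209441 in vein. Between 17016 and 17610 gene rows had at least 1 count in each of the 6 libraries. The 10 most abundant rows took 9.28% to 10.3% of the counts in EV day 3 and 7.45% to 8.76% in vein.

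The EV day 3 libraries lay far from the vein libraries and, by the median, closer to vein than to healthy nerve. On the log2 scale of counts brought to a common library depth with TMM factors (CPM), the root mean square difference between an EV day 3 and a vein library had a median of 1.80 over 9 pairs (1.54 to 1.94). Against healthy nerve it had a median of 2.07 over 15 pairs (1.88 to 2.13), and against healthy muscle 2.59 over 9 pairs (2.49 to 2.67). Against MIV day 3 the median was only 0.899 over 9 pairs (0.687 to 1.20), much smaller than against any healthy tissue. Healthy vein and healthy nerve differed by a median of 1.57 over 15 pairs (1.48 to 1.64). Within EV day 3 the 3 pairs ranged from 0.731 to 0.936, and within vein from 0.609 to 0.744. The ranges against vein and against nerve overlap, and pairs share libraries, so this order is a description. By Pearson correlation across genes, EV day 3 and vein libraries had a median of 0.815, EV day 3 and nerve libraries 0.754, and vein and nerve libraries 0.859.

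Replicate 1 of EV day 3 stood nearest to the vein libraries. In the principal components of the vein, nerve, EV day 3 and EV day 7 libraries, component 1 held 55.4% of the variance. It placed nerve between -118 and -110, vein between -6.22 and -1.56, EV day 7 between 64.4 and 74.4, and the EV day 3 replicates at 114, 132 and 135. Component 2 held 22.9% and placed vein between 99.7 and 114, with EV day 3 at -36.5, -59.6 and -73.7. Vein thus stood apart from every other library on component 2, and EV day 7 lay between vein and EV day 3 on both components.

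**Figure D1:**
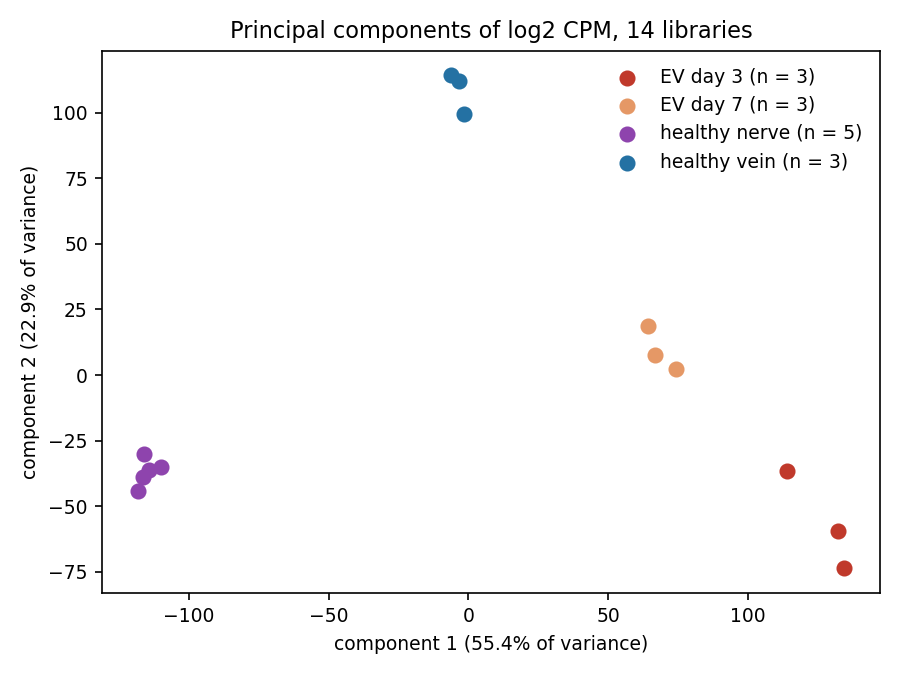
Scores of 14 libraries on the first 2 principal components of log2 CPM (axes in score units, with the share of variance), 1 point per library, coloured by group. The 3 EV day 3 libraries lie at 114 to 135 on component 1 and the 3 vein libraries near 0, with EV day 7 between them.

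In the main fit, a small majority of the genes tested was called between EV day 3 and vein. Of 15954 genes tested, 4255 were higher in EV day 3 (26.7%) and 4092 were lower (25.6%), which makes 8347 calls or 52.3% (edgeR quasi-likelihood test, Benjamini-Hochberg adjusted p under 0.05, all 23 libraries in the fit). The other 7607 did not pass. At an unadjusted p under 0.05, 4674 were higher and 4522 lower. In 5025 genes (31.5%) each EV day 3 library lay above each vein library, and in 4916 (30.8%) below. EV day 3 against healthy nerve called 60.7% of the same genes, against healthy muscle 67.5%, and healthy nerve against healthy vein 40.3%. Those comparisons share libraries with the first, and nerve has 5 libraries against 3.

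Higher and lower genes were nearly equal in number at each size up to 16-fold. Among the higher genes the median log2 fold change was 1.28 (quartiles 0.77 and 2.51), and among the lower genes -1.45 (quartiles -2.68 and -0.82). Beyond 2-fold, 2607 genes were higher (16.3%) and 2689 lower (16.9%). Past 8-fold the counts were 828 and 832. Above 64-fold 181 were higher and 142 lower. The median log2 fold change over all genes tested was 0.00.

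Abundant genes were called more often than rare ones. With the mean CPM of both groups under 1, 26.1% of 2379 genes were called, and 48.3% of 4054 genes at 1 to 10 CPM. The share was 59.0% of 7888 genes at 10 to 100 CPM and 68.5% of 1558 genes at 100 to 1000 CPM. Of the 75 genes at 1000 CPM or more, 25 were higher in EV day 3, 24 were lower and their median log2 fold change was 1.53 in size. At low levels the median size was not smaller, at 1.42 under 1 CPM.

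**Figure D2:**
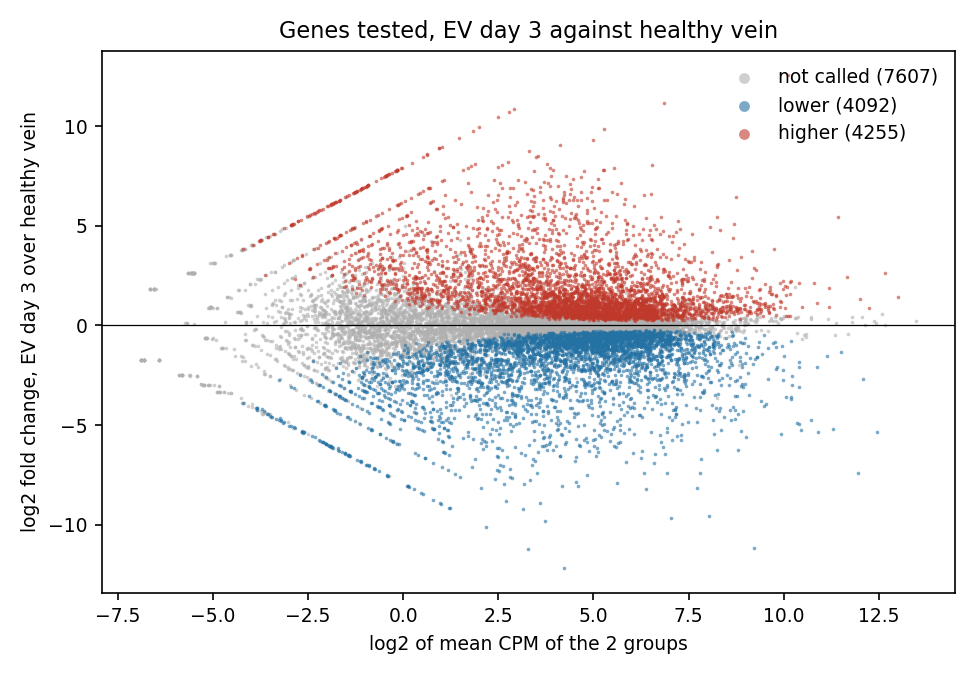
Log2 fold change of EV day 3 over healthy vein (vertical) against the log2 mean CPM of the 2 groups (horizontal), 1 point per gene tested, coloured by call. The 4255 higher and 4092 lower genes spread to either side at all levels, and at low levels most points are grey.

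The called genes held most of the RNA on both sides. The 4255 higher genes took 48.9% ± 3.02 of the counts in EV day 3 and 20.1% ± 0.606 in vein (SD, n = 3 each). The 4092 lower genes took 14.4% ± 1.67 in EV day 3 and 44.7% ± 0.830 in vein. Genes without a call took similar shares, at 36.7% ± 1.43 and 35.2% ± 0.533. These genes were chosen by this contrast, so the shares show how much of the RNA was involved and add no support to the calls. In healthy nerve (n = 5) the genes higher in EV day 3 took 23.5% ± 0.506 and the lower ones 41.0% ± 0.959.

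Few genes had 0 counts throughout a group and at least 1 CPM in every library of the other. With 0 counts in all 3 vein libraries, 17 genes reached at least 1 CPM in each EV day 3 library and 1 of them at least 10 CPM. Of the 17, 2 were also at 1 CPM or more in each healthy nerve library, and 4 had no count in any healthy library of nerve, vein or muscle. In the other direction, 15 genes had 0 counts in all 3 EV day 3 libraries and at least 1 CPM in each vein library, 2 of them at least 10 CPM. Of these 15, 8 were at 1 CPM or more in each nerve library, 6 also had no count in the 3 MIV day 3 libraries, and none had reached 1 CPM in each EV day 7 library.

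The identifiers with the largest fitted changes show the patterns in single libraries. The rule took genes that passed the test, averaged 10 CPM or more on the side where they were higher and had no overlap between groups, in order of log2 fold change. It was met by 3245 higher and 2939 lower genes, of which the first 2 in each direction are given.

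ENSRNOG00000043451 had 15873, 61902 and 27672 counts in EV day 3 replicates 1 to 3 and 6, 8 and 5 counts in vein. These correspond to 1058, 3959 and 1642 CPM against 0.303, 0.556 and 0.266 CPM. All EV day 3 libraries were high and no vein library had more than 8 counts. The log2 fold change was 12.54 ± 0.997 (SE, edgeR adjusted p = 1.26e-08), and the ratio of the summed levels was 6188 (95% counting interval 3962 to 10278). Healthy nerve held 1221 CPM ± 315 (SD, n = 5), with a lowest value of 990 and a highest of 1763, so EV day 3 overlapped nerve (log2 fold change 0.86 ± 0.52 SE, edgeR adjusted p = 0.163). At EV day 7 it stood at 448, 184 and 93.3 CPM, lower than at day 3 (28.4% of all genes were called between these days, log2 fold change -3.20 ± 0.65 SE, edgeR adjusted p = 0.00128). MIV day 3 held 5624, 9191 and 6502 CPM, above each EV day 3 library, though the difference did not pass (log2 fold change 1.68, edgeR adjusted p = 0.374). MIV day 7 held 338, 118 and 212 CPM. The transcript was thus present in nerve and in nerve after either repair. It was nearly absent from vein and from muscle, where it reached 0.163 to 4.37 CPM.

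ENSRNOG00000002548 was nearly absent from every healthy tissue. It had 3877, 3341 and 3813 counts in EV day 3 and 3, 1 and 1 in vein, or 258, 214 and 226 CPM against 0.152, 0.0694 and 0.0533 CPM. The log2 fold change was 11.15 ± 1.08 (SE, edgeR adjusted p = 1.44e-07), with a ratio of summed levels of 2460 (95% counting interval 1054 to 7577). Healthy nerve libraries held 0 to 0.422 CPM and muscle libraries 0 to 0.542 CPM. Against nerve the log2 fold change was 10.75 ± 0.84 (SE, edgeR adjusted p = 3.9e-09). The 3 EV day 3 libraries lay within a narrow range, and EV day 7 held 192, 142 and 150 CPM, a difference from day 3 that did not pass (log2 fold change -0.53 ± 0.61 SE, edgeR adjusted p = 0.552). In MIV day 3 the values spread more, at 36.8, 196 and 278 CPM.

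ENSRNOG00000014758 was found in vein and not detected in EV day 3. It had 701, 557 and 733 counts in vein (35.5, 38.7 and 39.0 CPM) and 0 counts in each EV day 3 library. Against a floor of 3 counts over the group it was at least 595-fold lower in EV day 3 (edgeR adjusted p = 4.98e-06). The vein and nerve libraries overlapped in level, with nerve at 27.9 to 44.3 CPM, and muscle ran from 1.47 to 18.4 CPM. MIV day 3 also had 0 counts in each library. At EV day 7 it had 12, 3 and 20 counts (0.748, 0.194 and 1.06 CPM), and the difference from day 3 passed the test (edgeR adjusted p = 0.0253).

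ENSRNOG00000018268 was likewise at 0 in EV day 3. It had 370, 393 and 222 counts in vein (18.7, 27.3 and 11.8 CPM) and 0 counts in each EV day 3 library, which makes it at least 294-fold lower (edgeR adjusted p = 1.63e-05). Healthy nerve held 3.30 to 15.1 CPM, overlapping the lowest vein library, while muscle held 0.141 to 0.542 CPM. EV day 7 had 4, 0 and 8 counts, which did not differ past the threshold from day 3 (edgeR adjusted p = 0.105). Both transcripts at 0 counts in EV day 3 were thus carried by healthy vein and healthy nerve alike.

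**Figure D3:**
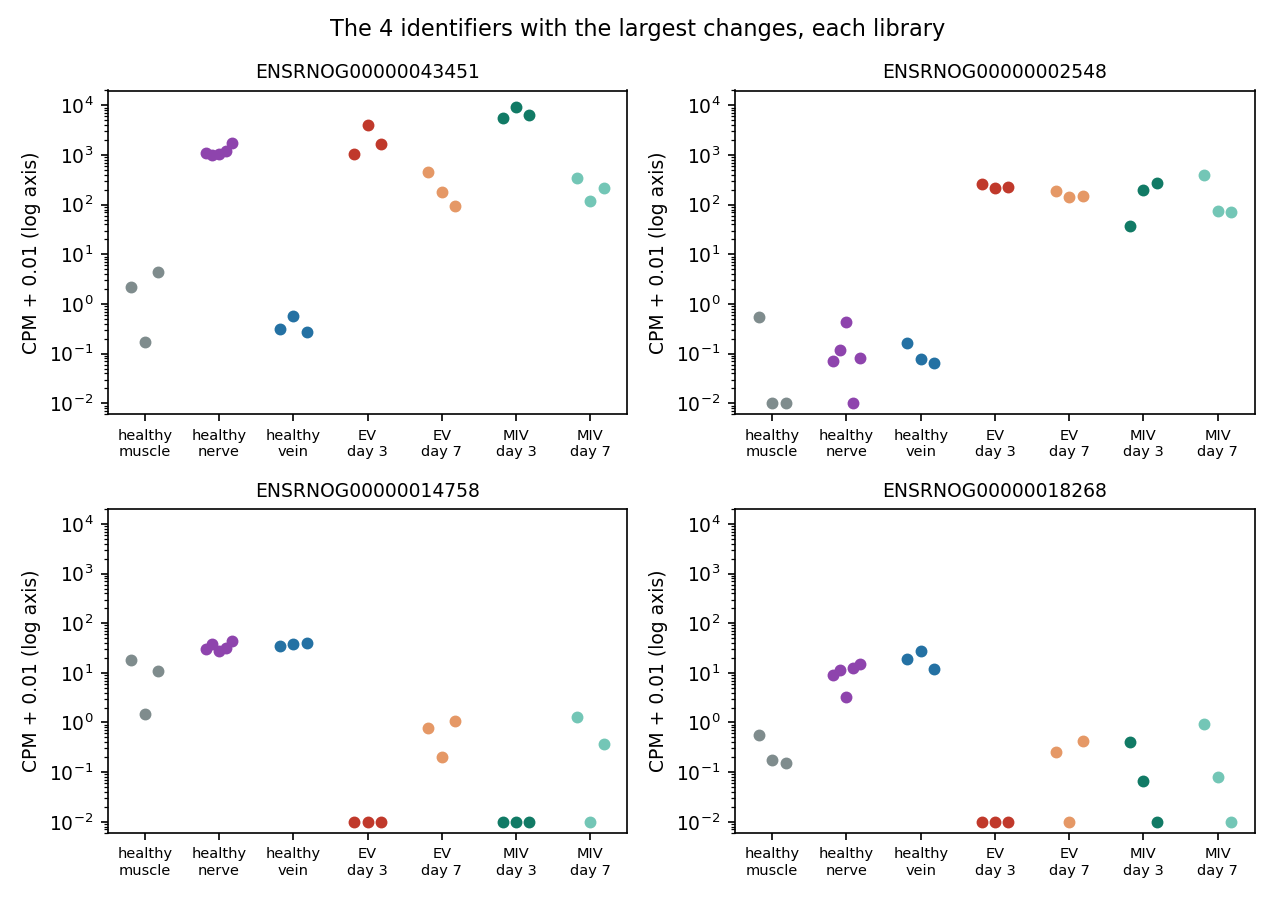
CPM plus 0.01 (log axis) of the 4 identifiers in each of the 23 libraries, 1 point per library, by group, with points at 0.01 standing for 0 counts. The upper 2 identifiers are high in all 3 EV day 3 libraries and below 1 CPM in vein, and the lower 2 are at 0 in EV day 3 and above 10 CPM in vein.

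Genes were next grouped by contrasts that use no EV day 3 and no vein library, so those libraries did not place a gene in a group. The MIV graft is muscle in vein, so MIV libraries can hold RNA of graft vein, and its part in the groups was not tested. Which contrasts to use was decided with earlier results of these data known. Each group needed an adjusted p under 0.05 and a log2 fold change beyond 1 in the contrast that set it. The contrasts were healthy nerve against healthy muscle, MIV day 3 against healthy nerve, and MIV day 7 against MIV day 3. They called 50.4%, 39.5% and 14.6% of the genes tested by that rule. They share the fit and its estimate of the spread with the main comparison but none of its libraries. MIV day 3 was close to EV day 3 across all genes. Its medians against vein were 1.78 for genes raised in MIV day 3 and -1.39 for genes lowered, beside 1.56 and -1.32 in EV day 3. A shared direction in groups set on MIV day 3 thus follows largely from that likeness and is no separate result. No test of a group was run, and each count is read beside the 26.7% higher and 25.6% lower over all genes tested.

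Genes higher in nerve than in muscle were called lower in EV day 3 somewhat more often than all genes. Genes higher in muscle stayed near the shares of all genes. Over all genes tested, 26.7% were higher and 25.6% lower. Of 4578 genes higher in healthy nerve than in muscle, 1091 were higher in EV day 3 than in vein (23.8%), 1533 were lower (33.5%) and 1954 were not called, and the median log2 fold change was -0.24 (quartiles -1.41 and 0.77). They took 31.6%, 31.6% and 31.2% of the counts in the EV day 3 replicates, 34.1%, 34.7% and 35.4% in the vein replicates, and 48.2% ± 1.45 in nerve (SD, n = 5). Every EV day 3 library lay below every vein library, by a small margin. Of 3460 genes higher in muscle than in nerve, 1002 were higher in EV day 3 (29.0%) and 708 lower (20.5%), with a median of 0.11. Their shares of counts overlapped, at 20.7% to 22.7% in EV day 3 and 20.3% to 21.6% in vein.

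Genes raised in MIV-repaired nerve were mostly higher in EV day 3 than in vein. Of 3037 genes higher in MIV day 3 than in healthy nerve, 2019 were higher (66.5%), 123 lower (4.05%) and 895 not called, and the median log2 fold change was 1.56 (quartiles 0.71 and 2.92). They took 27.9%, 32.9% and 31.8% of the counts in EV day 3 and 13.6%, 12.1% and 12.8% in vein, with 8.01% ± 0.351 in nerve (SD, n = 5). The ranges of EV day 3 and vein stood well apart. In healthy muscle the same genes took 41.9% ± 2.63 of the counts (SD, n = 3), more than in MIV day 3 itself at 33.4% ± 0.983 (SD, n = 3). The MIV graft contains muscle and vein, and how far transcripts of either set this group was not tested. The median of the group was 1.31, 1.503 and 1.497 log2 units above the vein mean in EV day 3 replicates 1 to 3, so it was smallest in replicate 1.

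The genes lowered in MIV-repaired nerve were mostly lower in EV day 3 than in vein as well. Of 3269 genes lower in MIV day 3 than in healthy nerve, 1966 were lower (60.1%), 162 higher (4.96%) and 1141 not called, and the median log2 fold change was -1.32 (quartiles -2.56 and -0.42). Their share was 7.91%, 6.68% and 6.41% in EV day 3 against 23.4%, 23.7% and 24.1% in vein and 39.9% ± 1.02 in nerve. Vein, although it is no nerve, thus held a large share of these transcripts. The remaining 9648 genes, which did not meet that rule between MIV day 3 and nerve and can include smaller changes, were called higher in 21.5% and lower in 20.8% of cases, with a median of 0.00.

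**Figure D4:**
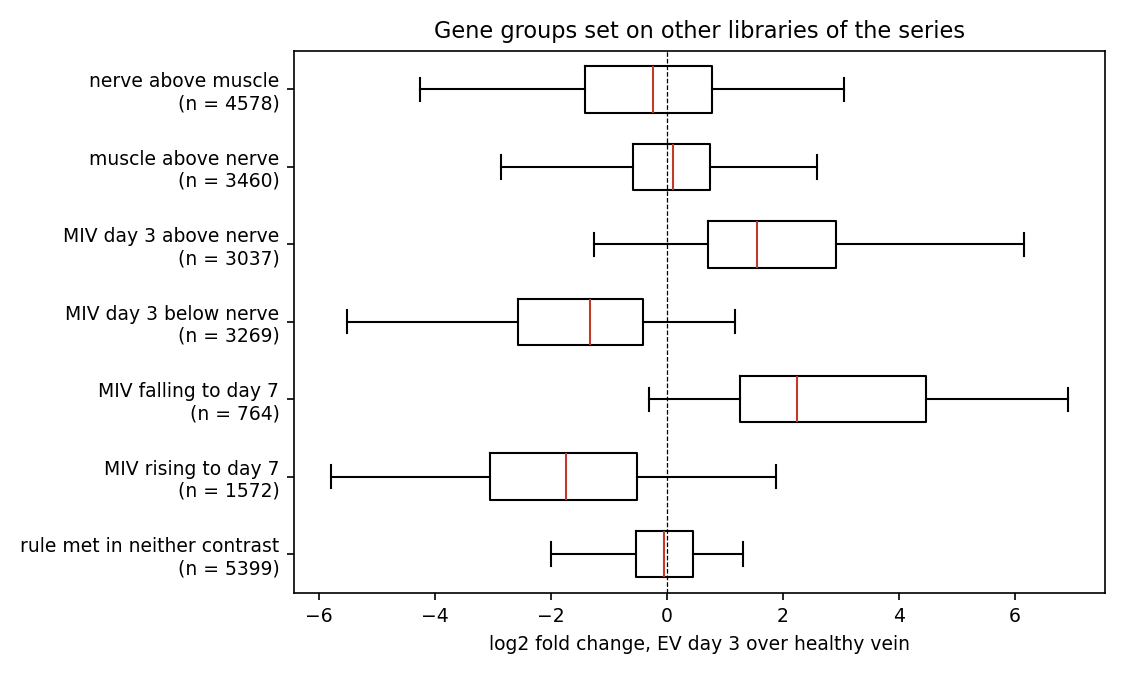
Log2 fold changes of EV day 3 over healthy vein for genes grouped on other libraries (box: quartiles, red line: median, whiskers: 5th to 95th percentile, n: genes). Genes raised in MIV day 3 or falling to MIV day 7 lie mostly above 0 (medians 1.56 and 2.25), and genes lowered or rising lie mostly below (medians -1.32 and -1.75).

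Genes that moved with time in MIV repair also lay mostly to one side of vein. Of 764 genes that fell from MIV day 3 to MIV day 7, 637 were higher in EV day 3 than in vein (83.4%) and 20 lower (2.62%), and the median log2 fold change was 2.25 (quartiles 1.25 and 4.46). They took 6.91%, 8.40% and 8.31% of the counts in EV day 3 and 2.47%, 2.56% and 2.51% in vein. Of 1572 genes that rose from MIV day 3 to MIV day 7, 906 were lower (57.6%) and 70 higher (4.45%), with a median of -1.75 (quartiles -3.04 and -0.52). These held 4.49%, 3.22% and 3.44% of the counts in EV day 3 and 13.4%, 13.5% and 13.1% in vein. In neither set did the shares of EV day 3 and vein overlap. Healthy muscle held 40.6% ± 2.98 of its counts in the genes that rose and 1.62% ± 0.224 in those that fell (SD, n = 3). The MIV day 7 replicates, which helped to set both groups, differed widely. Genes that rose took 14.4%, 11.9% and 20.3% of their counts. Genes higher in muscle than in nerve took 27.5%, 20.5% and 40.4%. How far muscle or vein of the MIV graft set the rising group was not tested.

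**Figure D5:**
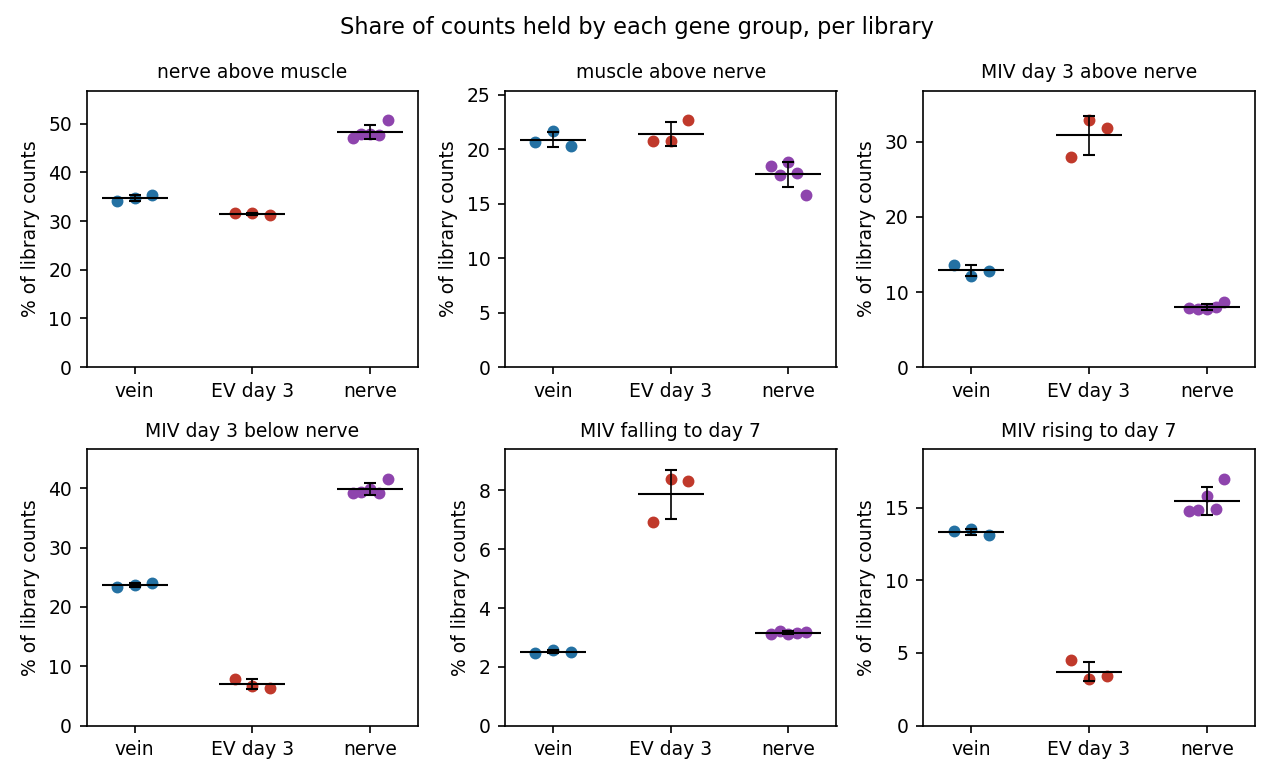
Percent of each library's counts held by 6 gene groups in healthy vein (n = 3), EV day 3 (n = 3) and healthy nerve (n = 5), with points for libraries, lines for means and error bars for SD. Genes lowered in MIV day 3 hold 23.4% to 24.1% in vein and 6.41% to 7.91% in EV day 3, and nerve is above both.

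Within the genes higher in nerve than in muscle, and within those higher in muscle, the direction against vein followed the MIV contrast. The short names nerve genes and muscle genes stand for that contrast only. Nerve genes (higher in nerve than in muscle) that were lowered in MIV day 3 numbered 2048, of which 1132 were lower in EV day 3 than in vein (55.3%) and 143 higher (6.98%), and the median log2 fold change was -1.35. Nerve genes that were raised in MIV day 3 numbered 623, of which 510 were higher (81.9%) and 18 lower (2.89%), with a median of 1.94. Those that met the rule in neither direction in MIV day 3 numbered 1907 and had 438 higher (23%) and 383 lower (20.1%), with a median of 0.01. Lowered nerve genes took 4.99%, 4.14% and 4.04% of the counts in EV day 3 and 14.01%, 14.4% and 15.3% in vein. Raised nerve genes took 10.8%, 12.8% and 12.9% in EV day 3 and 3.83%, 3.72% and 3.88% in vein.

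The muscle genes (higher in muscle than in nerve) divided in the same way. Of 812 that were raised in MIV day 3, 403 were higher in EV day 3 than in vein (49.6%) and 65 lower (8%), and the median log2 fold change was 0.999. The MIV graft contains muscle and vein, and the part of either in this group was not tested. Of 306 that were lowered, 218 were lower (71.2%) and 0 higher by edgeR. At an unadjusted p under 0.05 none was higher either, and DESeq2 also called 0. Without EV day 3 replicate 2 edgeR called 1 higher, and without vein replicate 3 it called 2. The median was -1.31 and the share of counts 0.910%, 0.798% and 0.787% in EV day 3 against 2.30%, 2.43% and 2.24% in vein. Of the 2342 that met the rule in neither direction, 599 were higher (25.6%) and 425 lower (18.1%).

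Genes raised or lowered in MIV day 3 were also counted by their later course in the MIV series, which passed the rule for 728 of the 3037 raised genes. The 578 raised genes that fell again by MIV day 7 included 530 that were higher in EV day 3 than in vein (91.7%) and 7 lower (1.21%), and the median log2 fold change was 2.87. The 150 raised genes that rose further had 30 higher (20%) and 16 lower (10.7%), and a median of 0.19 (quartiles -1.92 and 1.56). That second share lies below the 26.7% of all genes. These 150 genes took 29.4% ± 2.22 of the counts in healthy muscle and 1.15% ± 0.180 in EV day 3 (SD, n = 3 each). The part of graft muscle in them was not tested. Of 923 genes lowered in MIV day 3 that rose again by MIV day 7, 716 were lower in EV day 3 than in vein (77.6%) and 9 higher (0.975%, or 15 with DESeq2, 14 without the MIV day 7 group and 4 in the 6 libraries with a replicate block), with a median of -2.30. These 923 took 1.71%, 0.996% and 0.909% of the counts in EV day 3 and 9.89%, 9.93% and 9.41% in vein.

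At EV day 7 the same groups lay nearer to vein. The genes lowered in MIV day 3 that rose again had a median log2 difference from vein of -2.30 in EV day 3 and -0.57 in EV day 7. The raised genes that fell again had medians of 2.87 and 1.15. Raised genes that rose further went the other way, from 0.19 in EV day 3 to 0.80 in EV day 7. These medians share the vein libraries and stand side by side with no test. In MIV day 3, which served to choose the genes, the 3 medians were -2.66, 3.03 and 2.48.

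Genes that distinguish healthy vein from its neighbours were mostly low in EV day 3. Of 1127 genes higher in vein than in both nerve and muscle, 706 were lower in EV day 3 (62.6%), 100 higher (8.87%) and 321 not called, and the median log2 fold change was -1.61. The vein libraries helped to choose these genes, which favours a lower value elsewhere, so the count is a description only. Where EV day 3 lay between the healthy tissues was measured per gene on the log2 scale, with 0 at the vein mean and 1 at the nerve mean. For 2144 genes higher in nerve than in vein (log2 fold change above 1), the median position was 0.0545 (quartiles -0.33 and 0.52), and 74.1% lay nearer to vein. Of these, 951 lay below the vein level. For 1685 genes higher in vein than in nerve the median position was 0.695 (quartiles 0.12 and 1.25), 40.5% lay nearer to vein, and 577 lay below the nerve level. In both sets the EV day 3 median was thus on the side of the tissue with the lower level. The vein and nerve libraries chose these genes and set the scale, and no test was run.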

How the data were processed

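Gene counts of 23 rat RNA-seq libraries in 7 groups were analysed, grouped by their titles. Per the labels' protocols, 350 ng of total RNA per library went through poly-T selection into libraries that do not mark strand, so reads of antisense or overlapping genes are not separable. CASAVA and HISAT2 are named per the submitters' processing notes. Which counter, build and annotation were used is not given in the sources used here, and near-identical genes have uncertain counts. The authors deposited raw counts per Ensembl identifier. All columns matched a title.

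Counts were fitted with edgeR 4.0.16 under R 4.3.3 (all 23 libraries, 1 coefficient per group, TMM factors, filterByExpr at a minimum count of 10 and total of 15, glmQLFit in robust form, glmQLFTest, two-sided, Benjamini-Hochberg adjusted p under 0.05). The common biological coefficient of variation was 31.4%. Log2 CPM used a prior count of 2. The SE of a fold change was taken from its test statistic. DESeq2 1.42.0, other scaling factors, no filter, fewer libraries, a replicate block and each library left out were tried. Replicates of a group differed by more than counting noise, and none was counted as a duplicate. Intervals and floors cover counting error only.

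Members and gene groups were chosen with earlier results of these data known. Named identifiers followed a rule: adjusted p under 0.05, an average of 10 CPM or more on the higher side, libraries that do not overlap, then order of log2 fold change, with its symbol clause dropped and 2 identifiers per direction kept. The groups set on other libraries replaced the 39 symbol lists, of which 0 had a measured member, after the identifiers had matched no symbol.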

Additional observations from a re-analysis of the deposited data

Results flagged for a closer look

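The level in EV-repaired nerve differed between day 3 and day 7 for 2 of the 4 identifiers, by the contrast of EV day 7 with EV day 3. ENSRNOG00000043451 was lower at day 7 by -3.20 on the log2 scale (edgeR adjusted p = 0.00128, lower in 3 of 3 libraries). ENSRNOG00000014758 was higher at day 7 with a fitted log2 difference of 6.40 (edgeR adjusted p = 0.0253, higher in 3 of 3 libraries), a value that depends on the prior count because EV day 3 had 0 counts.

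In healthy nerve (n = 5), 4 values each had a library that stood apart, though not always the same library. The measure was the gap to its nearest neighbour over the range of the group, against a limit of 0.71. The ratio was 0.738 for the CPM of ENSRNOG00000002548, where replicate 3 was highest with 6 counts. For the share of counts it was 0.752 in genes higher in nerve than in muscle, 0.717 in genes raised in MIV day 3 and 0.792 in genes that did not meet the rule between MIV day 3 and nerve. In all of these shares it was replicate 5, and the shares draw on the same counts, so they are not separate flags. Chance marks about 1 in 20 groups in this way. The nerve libraries do not enter the contrast of EV day 3 with vein except through the shared spread and scaling.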

How the results depend on the processing

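The counts of 4255 higher and 4092 lower genes stayed within 1.5 times under every alternative run except the limit of a log2 fold change beyond 1, which left 2607 and 2689 by construction. DESeq2 gave 4456 and 4389, and no gene changed direction between calls under any alternative. Leaving out each EV day 3 or vein library in turn gave 3679 to 4121 higher and 3526 to 3974 lower genes. The 6 libraries alone gave 3977 and 3871, and adding a block for the replicate number 3502 and 3412, each of 14216 genes tested. A majority of the genes tested was not called in every fit. Without EV day 3 replicate 3, for instance, 3698 were higher and 3573 lower of 16310. Same-numbered EV day 3 and vein libraries did not deviate together (r = -0.02, -0.01 and -0.05), and no library correlated best with its own number. So few libraries cannot exclude a weak pairing by number. Relative log expression and upper quartile factors moved the median of all genes by at most 0.01 on the log2 scale, and the share of higher calls from 50.98% to 50.56% and 51.76%. All 4 identifiers kept their direction and call under all 13 refits. Of the group counts, 515 stayed within 1.5 times and 17 did not, 12 of these under the fold limit. The other 5 were small counts of higher genes. Among muscle genes lowered in MIV day 3 the count went from 0 to 1 without EV day 3 replicate 2 and to 2 without vein replicate 3. Among genes lowered in MIV day 3 that rose again it went from 9 to 15 with DESeq2, 14 without the MIV day 7 group and 4 in the 6 libraries with the block. Under 1 CPM 26.1% of genes were called, and the part of depth in that share was not tested.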
